A study of Rattus norvegicus with 72 samples.

Results

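Ube3a is the gene whose deletion these rats carry, and its RNA was followed here through every library of hypothalamus and cortex. The deposited tables count reads per RefSeq accession rather than per gene. 6 accessions were taken as its rows, the mouse accessions NM_173010, NM_011668 and NM_001033962 and the human accessions NM_130838, NM_130839 and NM_000462, out of 184444 accessions in each table. All 6 are listed in both tables, and a row was used where it held 10 or more counts over a table. NM_173010 held 510 counts over the 24 hypothalamus libraries and 817 over the 24 cortex libraries. NM_011668 held 108 and 206. The other 4 accessions held 0 counts in both tables and are not described further.

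Ube3a encodes an E3 ubiquitin ligase, an enzyme that tags other proteins for breakdown by the proteasome. The gene is imprinted in neurons: RNA is made mainly from the chromosome inherited from the mother, while a long antisense RNA from the paternal chromosome keeps the paternal copy quiet. Cells other than neurons use both copies. Loss of the maternal copy in people causes Angelman syndrome, so a maternal and a paternal deletion are the natural pair to compare. In the RefSeq table of rat genes, Ube3a lies between Atp10a and Snurf, the latter part of the same imprinted domain.

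All animals were female rat pups aged 2 days (P2) or 9 days (P9). Each pup either carried a deletion of UBE3A, with a label saying whether it came from the mother or the father, or was a wild-type (WT) control matched by litter and filed under the same parental label. The design thus has 8 groups of 3 RNA libraries per tissue, called labelled maternal and labelled paternal below, WT pups included. The labels give neither the extent of the deletion nor the strain, and they tie no single library to a litter, so tests measure the spread between these libraries, which may be partly technical. No label says how many pups a library holds.

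Total counts per library ran from 218288 to 599865 in hypothalamus labelled maternal and from 437650 to 1165651 in its libraries labelled paternal. Cortex libraries labelled maternal held 1669200 to 2498255 counts and those labelled paternal 735159 to 1102194. At this depth 1 library holds between 1 and 74 counts of NM_173010, so counting error is given beside the levels. Levels are in CPM, counts scaled to a common library total after normalization between libraries. 95% intervals on single libraries are exact Poisson intervals and cover counting error only. Some labels disagree with the measurements, which bears on all comparisons of labels. In cortex, 1580 accessions differed between WT pups of P2 and P9 under both parental labels, and 1580 of these moved in opposite directions under those labels. In hypothalamus 111 were called under both labels and all 111 moved the same way. The library names of cortex also fall into a separate series for each parental label, so label and series cannot be told apart there. Tissue identity could not be checked by marker genes, because 0 of the 184444 accessions matched the RefSeq rat table that pairs accessions with gene names.

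In hypothalamus labelled paternal, Ube3a RNA was far lower in deletion pups than in WT pups, at both ages and in every library. At P2 the 3 WT libraries held 38, 48 and 36 counts of NM_173010, or 56.3, 53.2 and 44.5 CPM. The 3 deletion libraries at P2 were sequenced more deeply and held only 6, 9 and 10 counts, or 6.33, 8.26 and 9.08 CPM. The lowest WT library thus stood well above the highest deletion library, and the Poisson intervals of that pair did not meet (31.2 to 61.7 CPM against 4.35 to 16.7 CPM).

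At P9 the picture was the same. WT libraries held 56, 55 and 28 counts of NM_173010, or 48.7, 52.8 and 37.0 CPM. Deletion libraries held 7, 1 and 6 counts, or 7.09, 2.61 and 6.78 CPM. The library with a single count was also the shallowest of this label, at 437650 counts, and its interval reaches 14.6 CPM. The groups again did not overlap, and at neither age did a deletion library come near the WT range.

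Averaged over the ages, deletion libraries labelled paternal kept 14.6% of the WT level of NM_173010 (95% interval 9.99% to 21.4%), a log2 fold change of -2.77 (SE 0.268). The quasi-likelihood F-test of edgeR gave an adjusted p (Benjamini-Hochberg, over 5840 accessions) of 2.52e-07, with 0.000261 at P2 and 0.000394 at P9. The share of all accessions called in each of these 3 comparisons was 0.0171%, which is 1 accession, and that accession was NM_173010. An exact permutation test of the libraries within age gave p = 0.005 (two-sided, n = 6 against 6), the smallest that its 400 arrangements can give. The single ages lost their call in edgeR with every library thinned to 218288 counts, where the log2 fold change was -1.71 at P2 (adjusted p = 0.996) and -3.23 at P9 (adjusted p = 0.0619). Thinned values come from a single random draw, and their spread over draws was not measured. With only the P9 libraries compared in the edgeR fit, the change at P9 was -2.90 with an adjusted p of 0.147. In tissue RNA, fewer cells that express a gene and less RNA per cell cannot be told apart.

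Some signal was present in each of the 6 deletion libraries, with 25 counts of NM_173010 at P2 and 14 at P9, against 122 and 139 in the WT libraries. Whether these reads come from the other copy of Ube3a, from the antisense RNA of the domain or from another part of the gene was not tested. The RNA kit is a directional one, but the strand setting of the counting is not given in the sources used here, so reads of the gene and of its antisense partner cannot be told apart.

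**Figure D1:**
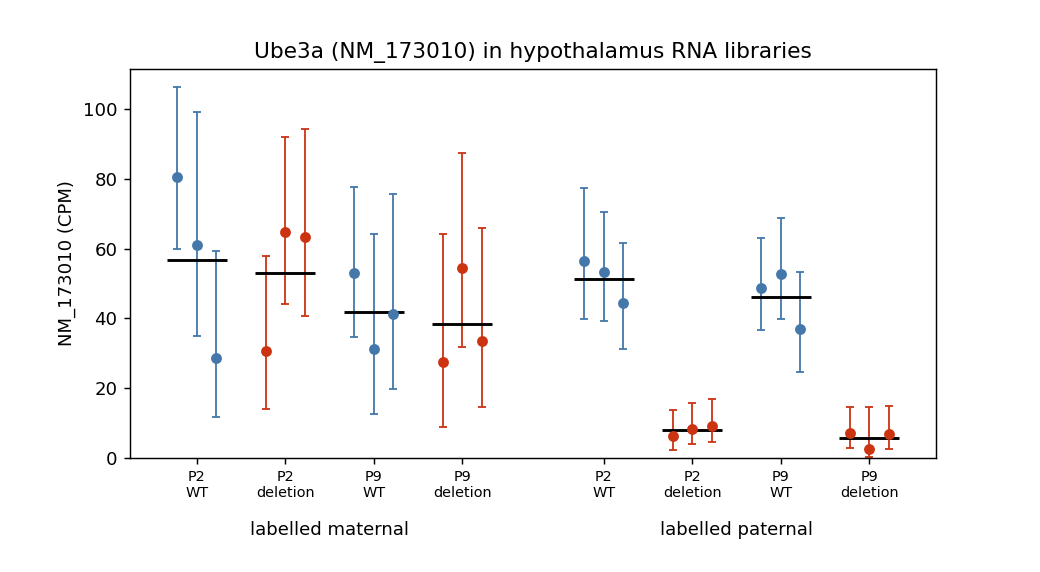
Levels of NM_173010 in CPM (linear axis from 0) for the 24 hypothalamus libraries, by parental label, age and genotype. Points are libraries, bars on points are exact 95% Poisson intervals of the count, and black lines are group means; the 6 deletion libraries labelled paternal lie at or below 9.08 CPM and all other libraries at or above 27.5 CPM.

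In hypothalamus labelled maternal, deletion and WT pups overlapped in Ube3a RNA. At P2 the WT libraries stood at 80.7, 61.2 and 28.7 CPM of NM_173010 from 50, 16 and 7 counts. The deletion libraries stood at 30.6, 64.9 and 63.5 CPM from 9, 31 and 24 counts. High and low libraries occurred in both genotypes, and a deletion library was below a WT library in 4 of 9 pairs.

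At P9 the WT libraries labelled maternal stood at 53.0, 31.1 and 41.1 CPM from 26, 7 and 10 counts of NM_173010. The deletion libraries stood at 27.5, 54.6 and 33.5 CPM from 5, 17 and 8 counts. Here 5 of 9 pairs had the deletion library lower. The shallow libraries of this label have wide intervals, for example 8.92 to 64.1 CPM for the library with 5 counts, yet none of the deletion libraries was as low as any deletion library labelled paternal.

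Over both ages the deletion level labelled maternal was 91.3% of WT, with a 95% interval of 63.1% to 132%. As a log2 fold change this was -0.13 (SE 0.26), not called by edgeR (adjusted p = 0.9999), and the exact permutation test within age gave p = 0.715 (two-sided). The interval spans both a moderate fall and a moderate rise, and its lower end lies far above the level kept under the label paternal. The share of accessions called for this deletion by edgeR was 0% at each age and in their average, with 97, 172 and 145 of 5840 at unadjusted p under 0.05 and 0, 0 and 0 called by DESeq2.

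The difference between the labels was tested directly. For NM_173010 the deletion effect under the label maternal lay above that under the label paternal, with a log2 difference of 2.64 (95% interval 1.87 to 3.42, SE 0.378, edgeR adjusted p = 0.000775). The share called in that comparison was 0.0171%, again NM_173010 alone. Thinned to equal depth in that same single draw, the difference was 2.33 with an edgeR adjusted p of 0.479, so the direction held and the call did not. Set against the imprinting of Ube3a in neurons, the parental labels of hypothalamus run opposite to the measured loss: RNA was lost with the label of the normally quiet copy and kept with the label of the normally active one. The tables hold no counts per allele, so which chromosome carried the deletion in these pups was not tested.

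The accession NM_011668 repeats the pattern of NM_173010 from a separate row, although reads of 1 gene can be shared between its rows in ways the files do not record. It was too sparse in hypothalamus to pass the filter on low counts, so it was tested only by permutation. With the label paternal, WT libraries held 10, 11 and 13 counts at P2 and 17, 4 and 6 at P9. Deletion libraries held 3, 1 and 1 counts at P2 and 1, 0 and 3 at P9.

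Scaled for depth, every deletion library labelled paternal was below every WT library of its age in NM_011668, at 0.907 to 3.17 CPM against 12.2 to 16.1 CPM at P2 and 0 to 3.39 CPM against 3.84 to 14.8 CPM at P9. At P9 the nearest pair was a deletion library with 3 counts and a WT library with 4. Their Poisson intervals nearly coincide (0.70 to 9.9 CPM against 1.05 to 9.8 CPM), so counting error does not separate them. For the P9 deletion library without a count, 3 counts would correspond to 7.84 CPM, so its level is not known to be below that of the WT libraries. The exact permutation test within age gave a difference of -1.59 on the scale of log2 CPM with a prior count of 2 (p = 0.005, two-sided, n = 6 against 6). That p is the smallest possible, and 18 such tests were run over 2 tissues.

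With the label maternal, NM_011668 was near its detection limit. WT libraries held 11, 2 and 3 counts at P2 and 4, 0 and 0 at P9. Deletion libraries held 2, 6 and 3 counts at P2 and 3, 2 and 2 at P9. The difference was 0.53 on the same log2 scale (exact permutation p = 0.285, two-sided). Groups overlapped at both ages, and at P9 only 1 of 9 pairs had the deletion library lower.

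The sum of both rows gave the same picture as NM_173010 alone. In the 6 deletion libraries labelled paternal it ran from 2.61 to 10.2 CPM, against 44.9 to 71.2 CPM in the 6 WT libraries. Its log2 fold change over both ages was -2.77 (SE 0.249) under the label paternal and -0.06 (SE 0.243) under the label maternal. NM_011668 made up 17.7% of the summed counts in WT libraries (95% exact binomial interval 14.3% to 21.5%) and 16.9% in deletion libraries (11.4% to 23.6%), so the balance between the rows was not told apart between genotypes in hypothalamus. Both figures pool the parental labels. In deletion libraries labelled paternal the share was 16.7% at P2 (5.64% to 34.7%) and 22.2% at P9 (6.41% to 47.6%), from only 30 and 18 summed counts.

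WT levels of NM_173010 in hypothalamus were not told apart by parental label. At P2 the WT mean of NM_173010 was 56.9 ± 26.2 CPM under the label maternal and 51.4 ± 6.11 CPM under the label paternal (SD, n = 3 each). At P9 it was 41.7 ± 10.95 CPM and 46.2 ± 8.22 CPM in the same order. The difference between labels was 0.06 on the log2 scale (95% interval -0.41 to 0.54, edgeR adjusted p = 0.924), in a comparison where 1.25% of accessions (73) were called. That count depends on single libraries: it fell to 9 when WT replicate 2 of the P2 pups labelled paternal was left out and rose to 344 when WT replicate 1 of the P9 pups with that label was. DESeq2 called 189. Direction is not settled for a difference this small, which became -0.11 without the filter on low counts.

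Age made no called difference to NM_173010 in WT hypothalamus. From P2 to P9 the log2 change was -0.47 (95% interval -1.20 to 0.26) for WT pups labelled maternal and -0.14 (-0.76 to 0.47) for those labelled paternal, with edgeR adjusted p of 0.538 and 0.835. In these age comparisons, added after the data were seen, 3.66% and 5.94% of accessions (214 and 347) were called. Without WT replicate 1 of P2 the change labelled maternal was only -0.061. Ranked over all 24 hypothalamus libraries, the 6 lowest were the 6 deletion libraries labelled paternal. The step from the highest of them to the next library was 3.03-fold, and each step above it was at most 1.24-fold. Counting error alone does not separate any library from its next neighbour, that step included.

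In cortex, NM_173010 did not separate the genotypes under either label, and single libraries decided how large the differences looked. With the label maternal at P2, WT libraries stood at 35.9, 22.1 and 29.3 CPM from 65, 43 and 60 counts. Deletion libraries stood at 20.5, 26.8 and 20.3 CPM from 39, 50 and 35 counts. Deletion libraries were lower in 8 of 9 pairs, but the groups overlapped.

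With the label maternal at P9, WT libraries stood at 27.5, 37.2 and 6.29 CPM from 51, 66 and 12 counts of NM_173010. Deletion libraries stood at 11.2, 7.87 and 9.48 CPM from 21, 14 and 22 counts. The 3 deletion libraries lay close together, and WT replicate 3 lay below all of them, with a Poisson interval of 3.25 to 10.99 CPM that does not meet those of the other WT libraries (20.5 to 36.2 and 28.7 to 47.3 CPM). This library's level is that of the libraries labelled deletion in its group. Depth does not set it apart, at 2078706 counts.

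With the label maternal, the log2 fold change of NM_173010 in cortex was -0.36 in P2 pups (95% interval -1.70 to 0.97), -1.29 in P9 pups (-2.83 to 0.24) and -0.83 as their average (-1.85 to 0.19). None passed the edgeR test (adjusted p of 0.9995, 0.617 and 0.635), and the exact permutation test within age gave p = 0.155 (two-sided, n = 6 against 6). Without WT replicate 3 the change in P9 pups was -1.75 with an adjusted p of 0.202 by the same edgeR test, and without WT replicate 2 it was -0.82. The share of accessions called by edgeR was 0% in each comparison, with 270, 784 and 758 of 8380 at unadjusted p under 0.05 and 1, 0 and 0 called by DESeq2. These counts rest on WT replicate 3 of P9: without it edgeR called 321 accessions at P9 and 220 in the average of the ages.

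**Figure D2:**
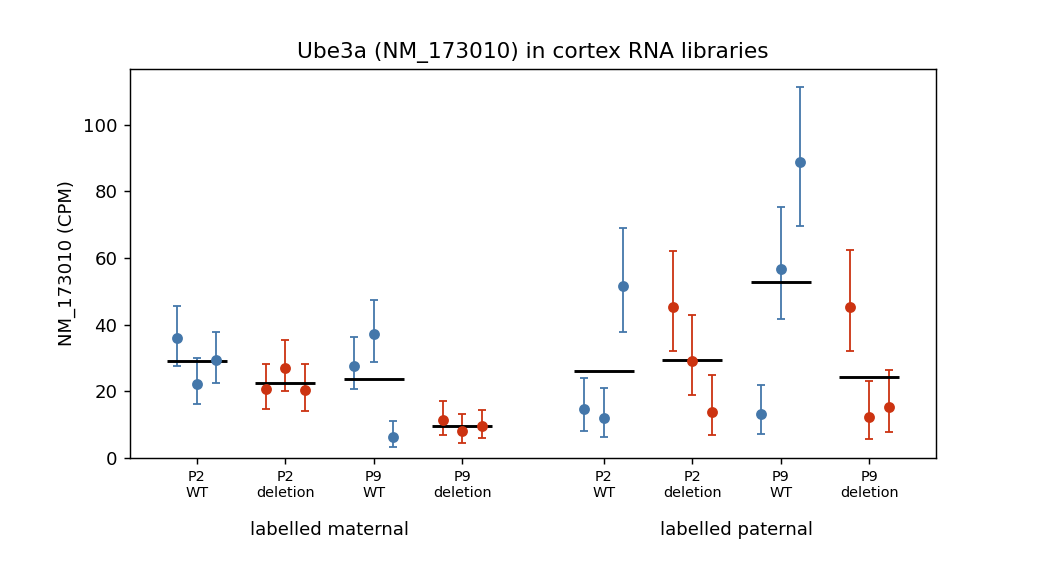
Levels of NM_173010 in CPM (linear axis from 0) for the 24 cortex libraries, drawn as for hypothalamus, with exact 95% Poisson intervals and black group means. With the label paternal, high and low libraries occur in both genotypes at both ages, and WT replicate 3 labelled maternal at P9 (6.29 CPM) lies with the deletion libraries of its group (7.87 to 11.2 CPM).

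With the label paternal at P2, cortex WT libraries stood at 14.5, 11.95 and 51.6 CPM from 15, 12 and 45 counts of NM_173010. Deletion libraries stood at 45.3, 29.0 and 13.8 CPM from 38, 25 and 11 counts. The 3 lowest of these 6 libraries were WT replicates 1 and 2 and deletion replicate 3. Levels thus cut across the genotype labels, with the deletion library lower in 4 of 9 pairs.

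With the label paternal at P9, WT libraries stood at 12.96, 56.7 and 88.8 CPM from 14, 47 and 74 counts. Deletion libraries stood at 45.3, 12.2 and 15.1 CPM from 37, 9 and 12 counts. The 3 lowest were WT replicate 1 and deletion replicates 2 and 3. At each age 3 libraries lay at 11.95 to 15.1 CPM and 3 at or above 29.0 CPM, and at neither age were the low ones all of 1 genotype.

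With the label paternal it was 0.23 in P2 pups (95% interval -1.38 to 1.83), -1.06 in P9 pups (-2.59 to 0.47) and -0.42 as their average (-1.53 to 0.70), with edgeR adjusted p of 1, 0.933 and 0.972. The exact permutation test within age gave p = 0.585 (two-sided). The interval of the average runs from 34.6% to 162% of the WT level, and that of P9 from 16.6% to 139%. Levels cut across the genotype labels here, so these intervals describe the labelled groups and do not bound the effect of a deletion. The share called by edgeR was 0% in each of the 3, with 275, 495 and 448 of 8380 at unadjusted p under 0.05 and 0, 0 and 0 called by DESeq2. The difference of the deletion effect between labels was -0.41 (95% interval -1.92 to 1.10, adjusted p = 0.915 by edgeR), with 0% of accessions called, 681 at unadjusted p under 0.05 and 0 called by DESeq2. For that difference 52 accessions were called once WT replicate 3 of the P9 pups labelled maternal was left out.

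**Figure D3:**
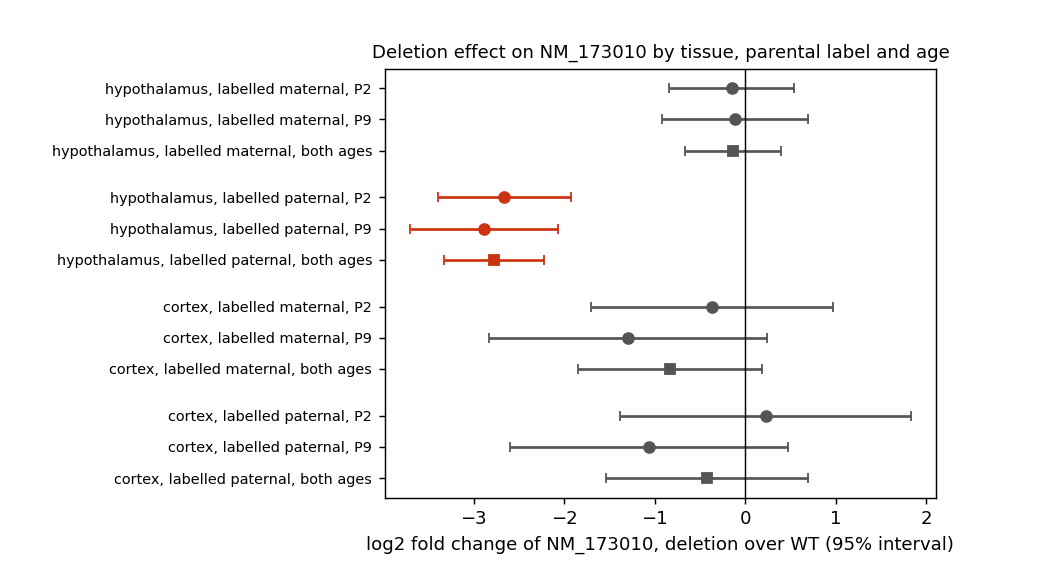
Log2 fold change of NM_173010 in deletion over WT libraries (x axis) for each tissue, parental label and age, with 95% intervals from edgeR. Red marks an adjusted p under 0.05 and squares the average over both ages; the 3 intervals of hypothalamus labelled paternal, centred at -2.66, -2.89 and -2.77, lie wholly below 0, and the other 9 cross it.

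WT cortex did not differ in NM_173010 between labels or ages beyond the spread of its libraries. WT levels under the label maternal were 29.1 ± 6.87 CPM in P2 pups and 23.7 ± 15.8 CPM in P9 pups (SD, n = 3 each). Under the label paternal they were 26.0 ± 22.2 CPM and 52.8 ± 38.1 CPM. The label difference was -0.46 on the log2 scale (95% interval -1.46 to 0.54, adjusted p = 0.545 by edgeR), where 16.7% of accessions were called. The change from P2 to P9 was -0.30 (-1.63 to 1.02) for pups labelled maternal and 1.02 (-0.46 to 2.50) for those labelled paternal, with adjusted p of 0.756 and 0.29 by edgeR. Without WT replicate 3 of P9 or WT replicate 3 of P2, the change labelled paternal was 0.36 or 1.91, and without WT replicate 3 of P9 that labelled maternal was 0.16. In those comparisons 30.6% and 29.3% of accessions were called. NM_173010 thus stayed uncalled in comparisons that moved a large share of accessions. This does not show a stable level, since the interval of -0.46 to 2.50 leaves room for a large rise. Under the label maternal, single WT libraries at P9 lay as low as 6.29 CPM and as high as 37.2 CPM. Under the label paternal that span was 12.96 to 88.8 CPM. The age labels are also in doubt here: all 1580 accessions called under both parental labels moved in opposite directions.

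NM_011668 passed the filter in cortex and was called in none of the comparisons. With the label maternal at P2, WT libraries held 8, 9 and 18 counts and deletion libraries 14, 7 and 5. At P9, WT libraries held 19, 13 and 13 counts and deletion libraries 8, 13 and 14. Its log2 fold change over both ages was -0.41 (95% interval -1.20 to 0.39, edgeR adjusted p = 0.805), and the groups overlapped at both ages.

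With the label paternal, cortex WT libraries held 2, 1 and 9 counts of NM_011668 at P2 and 5, 11 and 9 at P9. Deletion libraries held 6, 6 and 2 counts at P2 and 11, 3 and 0 at P9. The log2 fold change over both ages was -0.11 (95% interval -1.22 to 1.003, edgeR adjusted p = 0.995). The libraries low in NM_173010 were low in this row too: the 6 of them with this label held 2, 1, 2, 5, 3 and 0 counts, and the other 6 held 6 to 11.

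The balance of the rows was not even across cortex. NM_011668 made up 38.0% of the summed counts in deletion libraries labelled maternal at P9 (95% exact binomial interval 28.1% to 48.8%) and 25.9% in their WT group (19.5% to 33.0%), against 14.3% to 19.4% in the other 6 cortex groups. Within that WT group the share was 27.1%, 16.5% and 52.0%, the last being WT replicate 3, where NM_173010 was low and NM_011668 stood at 6.82 CPM. In the 3 deletion libraries it was 27.6%, 48.1% and 38.9%. NM_011668 itself stood at 4.27 to 7.30 CPM in the deletion libraries and at 6.82 to 10.3 CPM in the WT libraries of that age and label, with the deletion library lower in 8 of 9 pairs. The binomial intervals cover counting error only, and no difference between shares was tested.

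**Figure D4:**
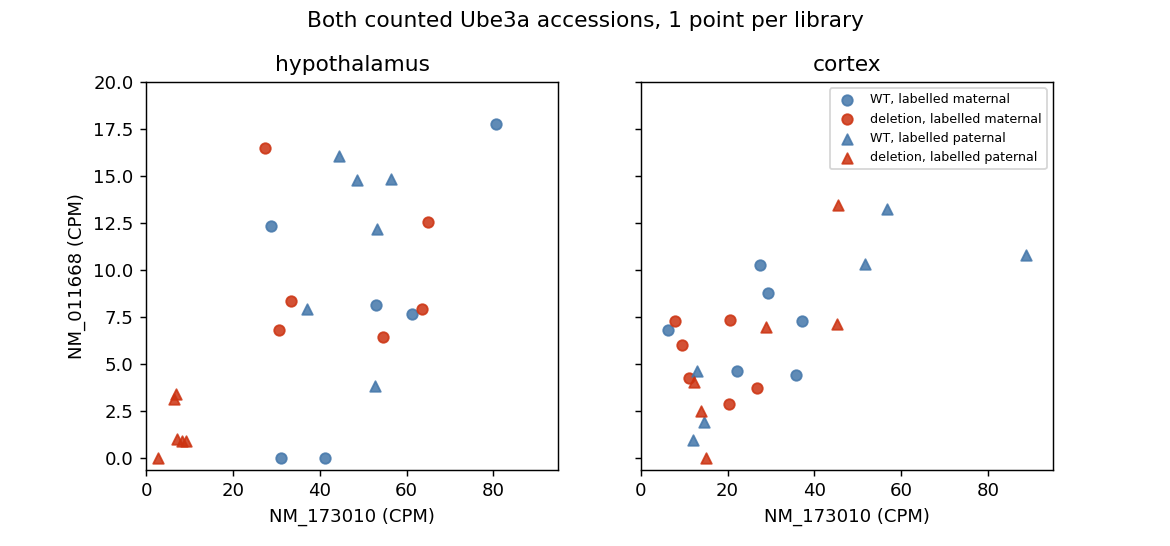
Level of NM_011668 (y axis, CPM) against that of NM_173010 (x axis, CPM), 1 point per library, with hypothalamus at left and cortex at right, colour for genotype and shape for parental label. In hypothalamus the 6 deletion libraries labelled paternal form the lower left corner; in cortex the 4 libraries labelled maternal with the lowest NM_173010 hold 4.27 to 7.30 CPM of NM_011668.

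Side by side, WT libraries ranged from 28.7 to 80.7 CPM of NM_173010 in hypothalamus and from 6.29 to 88.8 CPM in cortex. The tissues were counted in separate tables and scaled separately, and their libraries have different name series, so no test between tissues was made. Ranked over all cortex libraries, the 10 lowest ran up to 15.1 CPM and the next stood at 20.3 CPM, a 1.34-fold step. Those 10 comprised 4 WT and 6 deletion libraries, 4 labelled maternal and 6 labelled paternal. The largest step of this ranking, 1.57-fold, lay below the highest library. The ranking pools labels and ages, and gaps within them were wider. At P9, levels jumped from 15.1 to 45.3 CPM with the label paternal and from 11.2 to 27.5 CPM with the label maternal.

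The parental labels can also be set against the methylation tables of the same hypothalamus study, which are named after a parent; the design text says that RNA and DNA came from the same hypothalamus samples. Of 24 DNA libraries, 6 are listed in the table of the other parent than their label gives, with 4 libraries labelled paternal among the 12 of the maternal table and 2 labelled maternal among the 12 of the paternal table. All of those 4 are labelled P2 and those 2 are labelled P9, so the mismatch goes with age as well as parent. No label links a given DNA library to its RNA library, so this does not say which RNA libraries, if any, have a wrong label. Taken by Ube3a alone, the genotype labels of hypothalamus labelled paternal match a loss in 6 of 6 deletion libraries. Those of hypothalamus labelled maternal show none, and those of cortex labelled paternal are crossed by the levels at both ages. In cortex labelled paternal, the deletion library was lower in 4 of 9 pairs at P2 and 7 of 9 at P9. In cortex labelled maternal, the deletion library was lower in 8 of 9 pairs at P2 and 6 of 9 at P9. At P9 the lowest WT library there (6.29 CPM) lay below every deletion library (7.87 to 11.2 CPM). A fall with this label is the direction that imprinting in neurons would give. EdgeR called neither this fall nor the cortex difference between labels.

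Over all libraries of hypothalamus, NM_011668 followed NM_173010 more closely than any other accession did. Pearson's r of log2 CPM over the 24 libraries was 0.67, with 0 of 5839 other accessions higher and a median r of -0.01. In cortex the r of NM_011668 was 0.52, with 320 of 8378 higher. The libraries share depth and group structure, so these values describe likeness only.

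Among accessions outside the gene, NM_008047 (r = 0.66) and NM_007984 (r = 0.64) were the most alike to NM_173010 in hypothalamus and NM_010882 (-0.62) and NM_009052 (-0.61) the most opposed. In cortex the same accessions had r of -0.31, 0.08, 0.33 and -0.37, so NM_007984 and NM_009052 kept their sign at a smaller size and the other two turned it. In cortex NM_001007318 (r = 0.81) and NM_022768 (r = 0.76) were the most alike and NM_053103 (-0.68) and NM_030035 (-0.68) the most opposed over 24 libraries. NM_030035 had r = -0.06 in hypothalamus and the other 3 did not pass the filter on low counts there. The files do not pair these accessions with gene names.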

How the data were processed

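RNA was measured in 48 libraries. Per the submitters' processing notes, STAR was used, with builds listed as rn6 and Rnor_6.0; the version, counter, annotation and strand setting were not given in the sources used here. Raw counts per RefSeq accession were deposited. The deposited methylation tables hold smoothed levels as fractions, and only their column names were used. Unmapped columns numbered 0. Groups came from the labels, and replicate numbers only name libraries, in record order.

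In R 4.3.3, the 24 libraries of a tissue were fitted together across all accessions in edgeR 4.0.16 (TMM scaling, filterByExpr, 1 mean per group, robust quasi-likelihood F-test, 16 residual degrees of freedom), with Benjamini-Hochberg adjustment and a threshold of 0.05. This left 5840 hypothalamus and 8380 cortex accessions. Exact permutation tests shuffled genotype within age or, among WT libraries, parental label within age. The fit was tested on simulated data. Alternatives were DESeq2 1.42.0, other scaling, no filter, fewer libraries, thinning by a single random draw per tissue, NR_137294 left out, and summed rows.

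Named accessions are the 6 members and, per tissue, the 2 most and 2 least correlated with NM_173010. The members and lists were chosen with earlier results of these data known. Gene lists could not be matched to accessions and were not analysed here.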

Additional observations from a re-analysis of the deposited data

Results flagged for a closer look

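The deletion effect on NM_173010 in hypothalamus differed between the parental labels by 2.64 on the log2 scale (labelled maternal minus labelled paternal), by the direct edgeR quasi-likelihood test of that difference (adjusted p = 0.000775). The level was lower in deletion than in WT libraries in 9 of 9 pairs at each age with the label paternal, and in 4 of 9 (P2) and 5 of 9 (P9) pairs with the label maternal. A difference in depth between the labels goes with it, and its part in the result was not tested beyond the thinned fit, in which the difference was 2.33.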

How the results depend on the processing

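The loss of NM_173010 in hypothalamus labelled paternal over both ages kept its direction and call under every alternative run. At P2 and P9 it lost its call when libraries were thinned (-1.71 and -3.23), and at P9 with only the groups compared (-2.90, adjusted p = 0.147 in edgeR); the difference between labels lost its call when thinned (2.33). Changes of sign occurred only in results that were never called: the WT label difference in hypothalamus without the filter (-0.11), thinned (-0.016), with both rows summed (-0.045) and in the permutation test (-0.057), the WT age change labelled paternal there when thinned (0.17), and the deletion effect labelled maternal at P9 with both rows summed (0.091). In cortex, 72 of 72 alternatives kept direction and side of the threshold for NM_173010.

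With 1 library left out, log2 values in hypothalamus ran from -2.86 to -2.69 (labelled paternal, both ages), -2.77 to -2.53 (P2) and -3.06 to -2.71 (P9), with the call kept in 12 of 12, 6 of 6 and 6 of 6 fits, and from 2.46 to 2.84 for the difference between labels (24 of 24). With the label maternal they ran from -0.32 to 0.067 (both ages), -0.41 to 0.25 (P2) and -0.50 to 0.14 (P9). The WT label difference ran from -0.14 to 0.19 in hypothalamus and -0.70 to 0.059 in cortex. In cortex the deletion effect labelled paternal ran from -0.22 to 1.16 (P2), -1.90 to -0.44 (P9) and -0.84 to 0.044 (both ages), that labelled maternal from -0.53 to -0.20 (P2), -1.75 to -0.82 (P9) and -1.06 to -0.59 (both ages), the difference between labels from -0.84 to 0.022, and the WT age change from -0.78 to 0.16 (labelled maternal) and 0.36 to 1.91 (labelled paternal). In hypothalamus the WT age change ran from -0.73 to -0.061 and from -0.25 to -0.013 in the same order. NM_173010 was called in none of these cortex fits. The cause of these changes was not tested, apart from the fewer counts that thinning leaves.

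Counts of called accessions also moved. With 1 library left out, those in hypothalamus ran from 9 to 344 for the WT label difference (73 with all libraries), 88 to 271 (214) and 147 to 317 (347) for the WT age change labelled maternal and paternal, and 1 to 2 (1) for the deletion effect labelled paternal over both ages. In cortex, from 0 with all libraries, the highest counts were 321 (P9), 220 (both ages) and 52 (difference between labels) without WT replicate 3 labelled maternal at P9, 3 without deletion replicate 1 labelled maternal at P2 (P2), and 13 at P9 when WT replicate 2 of the P9 pups labelled paternal was left out. Without the filter, cortex counts were 7, 56 and 45 labelled maternal (P2, P9, both ages), 15 labelled paternal at P9, 1 over both ages, 16 for the difference and 2329 for the WT label difference (1403). Hypothalamus counts were then 1 labelled maternal at P9 and over both ages, 2 and 3 labelled paternal, and 344 for the WT label difference. Thinning gave 30 for that difference, 144 for the WT age change labelled paternal, and in cortex 897 for the WT label difference and 1677 for the WT age change labelled maternal (2567). With only the groups compared, cortex labelled maternal had 2 (P2) and 1 (P9).

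No paired analysis by litter was possible because the labels tie no single library to a litter.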
